A study of Mus musculus with 2 samples.

Results

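Wide unmethylated valleys are stretches of the genome in which CpG methylation stays low over several kilobases in a row. In the epiblast of female mouse embryos they were read from the autosomes in tiles of 1 kb. A tile counted as low when it held 5 or more CpGs and 10 or more read counts and when 15% or less of its read counts were methylated, and a valley was a run of 5 or more adjacent low tiles. Of 1581064 measured autosomal tiles, 24808 were low, which is 1.57%. They formed 15351 runs, of which 214 were valleys, and the other 15137 runs were 1 to 4 tiles long. The valleys covered 1255 kb, or 0.0794% of the measured tiles. Level and length chose the valleys, so both are given below as a description, with no test. What the rule did not use is the genes and sequences in the valleys, their CpG number above the minimum, the second tile and beyond outside each edge, and the reads of one strand where the other made the choice.

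The data are whole-genome bisulfite sequencing of the epiblast of C57Bl6/J mice, taken at embryonic day 6.5 from embryos that were wild type, female and of genotype XX. Per the labels the group has 2 samples, from natural matings and without embryo culture, and per the design text the tissue was dissected by hand and the sex read by PCR from extra-embryonic tissue. Bisulfite converts unmethylated cytosine and spares methylated cytosine, so the methylation level is the methylated share of the read counts at the CpGs of a region. The deposited table has no column per sample, so no replicate error can be given and no p-value was computed. Intervals are exact Clopper-Pearson 95% intervals of the counts, and they cover counting error only, since a read can span several CpGs. Over the 20383623 autosomal CpGs the mean depth was 6.54 reads per CpG and the level was 66.3%. A level in dissected tissue does not tell whether few alleles are methylated throughout or many in part, and the bisulfite conversion rate is not given in the sources used here.

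In mammals most CpGs are methylated, and the common exceptions are CpG islands, short CpG-rich stretches at gene starts. Unmethylated stretches that run far beyond an island are known from many tissues, where they lie around genes of developmental regulators and are often bound by Polycomb repressive complexes, which place histone marks of silent genes. The epiblast gives rise to all tissues of the fetus and gains methylation across most of its genome as the embryo implants.

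The start regions of 4 genes in valleys are shown to let the CpG content of a valley be seen, with that of a gene outside valleys for contrast. They are the genes of the 3 longest valleys and of a valley with low levels throughout. Each sequence holds 250 bases before the start and 50 after it on the gene's strand, from RefSeq on GRCm38.p6, with each CpG in capitals. They lie at chr2:105668646-105668945 on the plus strand (Pax6), chr5:142817613-142817912 on the minus strand (Tnrc18), chr4:99656049-99656348 on the plus strand (Foxd3), chr13:63565686-63565985 on the minus strand (Ptch1) and chr5:90460620-90460919 on the plus strand (Alb). Alb, which encodes the albumin of liver and blood plasma, was chosen as the contrast after its values were seen.
Pax6: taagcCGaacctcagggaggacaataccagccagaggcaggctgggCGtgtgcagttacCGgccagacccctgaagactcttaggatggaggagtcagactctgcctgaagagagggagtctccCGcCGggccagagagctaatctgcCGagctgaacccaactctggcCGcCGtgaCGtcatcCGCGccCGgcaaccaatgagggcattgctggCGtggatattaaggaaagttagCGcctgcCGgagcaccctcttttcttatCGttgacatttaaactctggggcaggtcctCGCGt
Tnrc18: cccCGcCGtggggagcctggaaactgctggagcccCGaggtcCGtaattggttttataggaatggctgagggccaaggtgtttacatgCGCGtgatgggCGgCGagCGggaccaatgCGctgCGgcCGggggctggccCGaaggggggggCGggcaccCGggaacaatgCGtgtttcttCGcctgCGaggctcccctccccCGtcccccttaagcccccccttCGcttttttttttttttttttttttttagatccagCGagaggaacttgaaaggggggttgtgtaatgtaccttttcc
Foxd3: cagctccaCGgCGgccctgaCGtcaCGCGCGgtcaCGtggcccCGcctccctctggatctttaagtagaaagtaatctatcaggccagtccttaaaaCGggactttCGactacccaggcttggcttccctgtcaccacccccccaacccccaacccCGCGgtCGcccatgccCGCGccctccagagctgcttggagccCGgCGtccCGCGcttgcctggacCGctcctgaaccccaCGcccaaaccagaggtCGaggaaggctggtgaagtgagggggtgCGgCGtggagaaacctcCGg
Ptch1: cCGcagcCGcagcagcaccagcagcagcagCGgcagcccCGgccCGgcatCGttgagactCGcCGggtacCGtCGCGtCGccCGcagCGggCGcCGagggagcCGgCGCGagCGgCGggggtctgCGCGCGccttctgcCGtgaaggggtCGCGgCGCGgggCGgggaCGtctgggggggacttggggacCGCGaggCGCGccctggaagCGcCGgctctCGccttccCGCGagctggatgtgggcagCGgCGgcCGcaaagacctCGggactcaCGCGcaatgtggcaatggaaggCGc
Alb: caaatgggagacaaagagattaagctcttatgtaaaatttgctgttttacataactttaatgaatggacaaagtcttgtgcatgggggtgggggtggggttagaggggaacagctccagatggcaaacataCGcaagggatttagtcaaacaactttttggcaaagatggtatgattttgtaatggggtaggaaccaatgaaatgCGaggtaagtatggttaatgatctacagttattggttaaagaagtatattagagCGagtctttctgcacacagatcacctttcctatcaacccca

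The Pax6 start region holds 18 CpGs, that of Tnrc18 21, that of Foxd3 25 and that of Ptch1 47, against 3 in that of Alb. The 1 kb tile that holds the Pax6 start was methylated at 12.2%, from 36 of 296 read counts. The tile at the Tnrc18 start was at 10.4% (72 of 692), that at the Foxd3 start at 8.55% (143 of 1673) and that at the Ptch1 start at 3.01% (48 of 1594). The tile at the Alb start was at 74.2%, from 23 of 31 read counts.

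These 4 starts are near the middle of the CpG content of starts in valleys, apart from the CpG-rich Ptch1. Over the 168 protein-coding starts in valleys that the RefSeq promoter table holds, the median was 23 CpGs and 64.0% G and C in 300 bases. A gene with several listed starts counts once for each, and the 20085 starts of the table belong to 16457 genes. The 9410 starts in low runs of 1 or 2 tiles had medians of 23 CpGs and 63.3%, and the 7410 starts in measured tiles over 15% had 5 CpGs and 50.7%. By these measures the starts in valleys resembled those in short runs and differed from those in methylated tiles. The GC box GGGCGG, searched on both strands, was in 70.2% of the starts in valleys, 71.4% of those in runs of 1 or 2 tiles, 21.7% of those in methylated tiles and 47.0% of all 20085 starts in the table. The TATA box TATAAA, on both strands, was in 8.33% of the starts in valleys, 5.28% in runs of 1 or 2 tiles, 17.5% in methylated tiles and 12.7% of all. CGCG was in 75.6% of the starts in valleys, 81.3% in runs of 1 or 2 tiles, 16.8% in methylated tiles and 50.3% of all. These are matches of letters and can overlap each other. CCAAT, on both strands, differed little, with 42.3% of the starts in valleys and 38.1% of all.

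A few valleys hold microRNA genes, and their mature sequences are shown because 2 of them share a seed within the same valley. The seed, bases 2 to 8, is in capitals, and the sequences are from RefSeq on GRCm38.p6. miR-132-3p lies at chr11:75173723-75173744 and miR-212-3p at chr11:75173443-75173464, both on the plus strand in the valley of Hic1, and miR-9-5p at chr7:79505279-79505301 on the plus strand.
miR-132-3p: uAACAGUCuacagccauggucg
miR-212-3p: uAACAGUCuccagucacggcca
miR-9-5p: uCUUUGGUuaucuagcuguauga

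The seed of miR-132-3p and miR-212-3p is the same, AACAGUC. The miR-9-5p gene shown is Mir9-3, a copy of miR-9, a microRNA of the developing nervous system. Of 919 autosomal hairpins in the RefSeq table, 6 were inside a valley, which is 0.653%, against 1.02% of protein-coding genes that overlap a valley. These shares are not alike in measure, since a hairpin is short and a coding gene counted with any overlap of its span. Wholly inside a valley were 32 of the 20665 protein-coding genes. Mir1895 in the valley of Cxxc4 and Mir1247 in that of Dio3 were also among them.

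Valleys were mostly just over the length limit. Of the 214 valleys, 110 were 5 kb long, 56 were 6 kb, 29 were 7 kb and 19 were 8 kb or longer, up to 12 kb. The counts of runs fell at each step of length: 8416 runs had 1 tile, 5327 had 2, 1093 had 3 and 301 had 4. Summed over all valleys, 7.67% of 768632 read counts were methylated. A valley of the rDNA-related gene Rn18s-rs5 alone holds 94385 of these read counts, at 182 reads per CpG against a median of 10.5, and without the 3 valleys under 5 or over 20 reads per CpG the summed level was 6.91%. The others of unusual depth were at LOC108167694, with 20.4 reads per CpG, and at Gm36079, with 2.68 reads per CpG, 673 read counts and a level of 8.77%. The median over valleys was 6.84%, with quartiles of 5.51% and 8.56% and a range from 2.76% to 13.3%. So the valleys were low in methylation, not free of it.

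**Figure D1:**
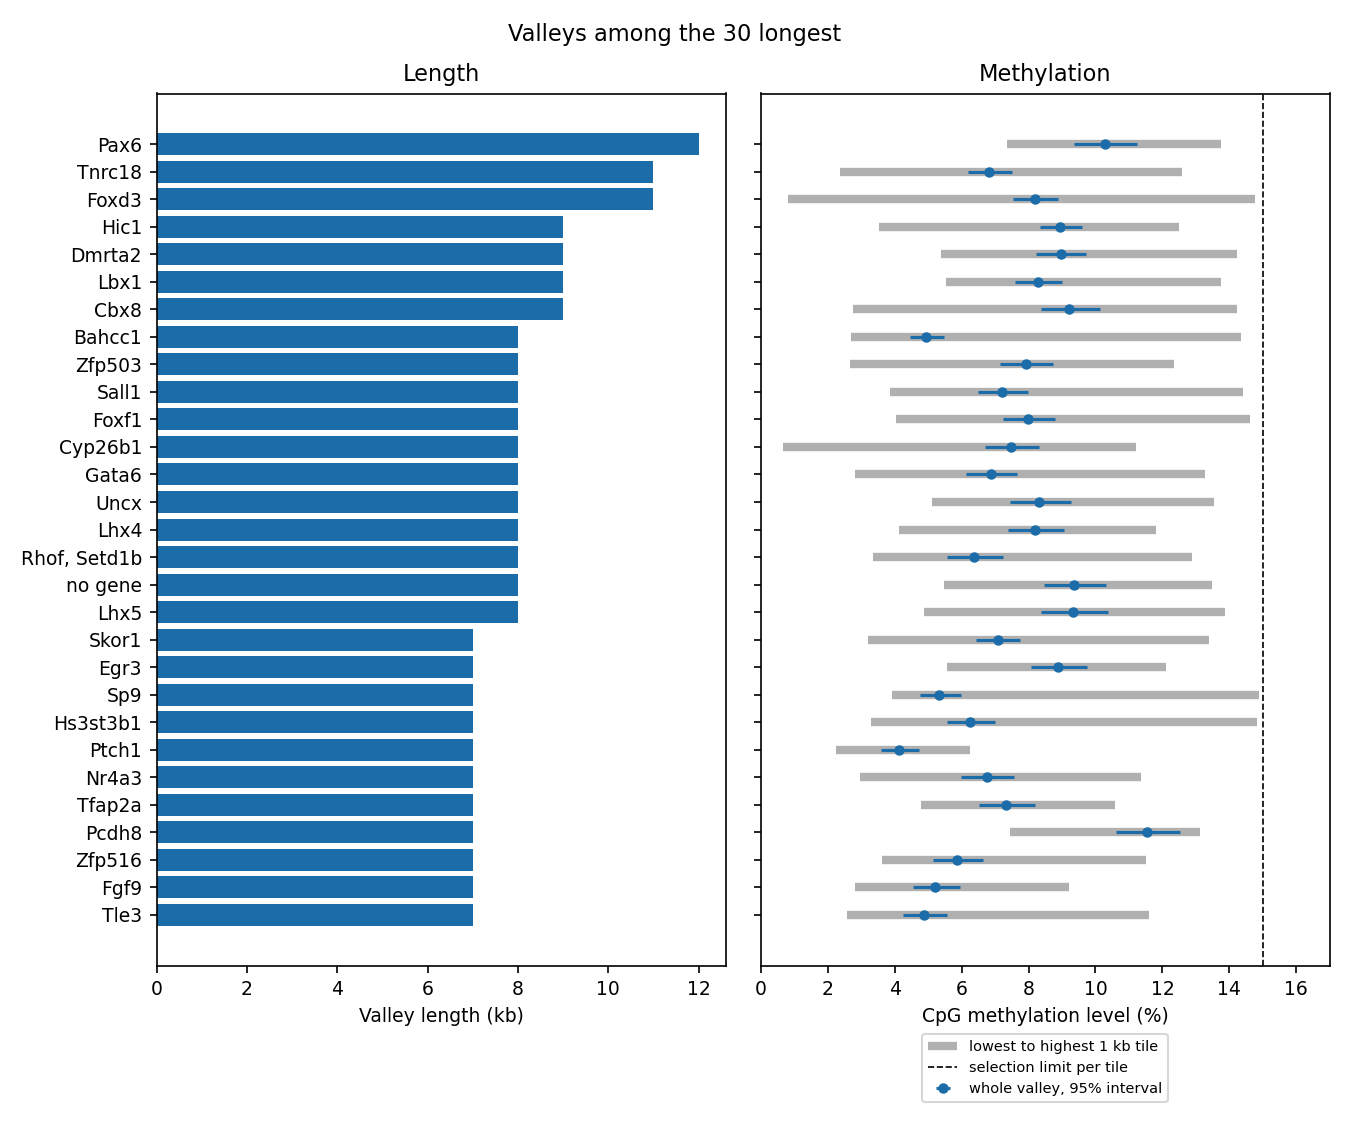
Length in kb (left) and CpG methylation in percent (right) of valleys among the 30 longest, with the whole valley as a point with its 95% counting interval, its lowest to highest tile as a gray bar, and the 15% limit dashed. Lengths run from 12 kb at Pax6 to 7 kb, and the Ptch1 bar, which ends at 6.25%, stops farthest from the limit among them.

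The longest valley lay at Pax6, the paired-box regulator of eye and brain development, at chr2:105666001-105678000, and reached 12 kb. Its 451 CpGs had a level of 10.3% (9.36% to 11.2%). From left to right its tiles were at 10%, 9.49%, 12.2%, 9.61%, 12.5%, 13.8%, 12.7%, 12.6%, 10.5%, 9.96%, 7.36% and 10.4%. No tile stood far below the rest. Among the 30 longest valleys only that of Pcdh8 had a higher lowest tile, 7.44%. The surroundings were low as well: the tile on the left was at 31.4% and that on the right at 18.97%, and the 7 tiles on the left ranged from 13.9% to 31.4%. On this side levels over 70% began at the eighth tile out. The start of Pax6 lay 2.90 kb inside the left edge, so most of the valley is gene body.

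The 11 kb valley of Tnrc18, a gene named for its trinucleotide repeats, had a sharp right side. Its tiles at chr5:142813001-142824000 were at 7.53%, 3.54%, 6.47%, 8.89%, 10.4%, 7.13%, 7.28%, 6.11%, 3.98%, 2.35% and 12.6%, with 6.83% (6.18% to 7.52%) overall. The next tile was at 28.1% on the left and at 70.9% on the right. So neighboring tiles on the right were at 12.6% inside and 70.9% outside.

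Foxd3, a forkhead factor of pluripotent epiblast and neural crest, is wholly inside its 11 kb valley at chr4:99651001-99662000, whose level was 8.18% (7.53% to 8.88%). Its tiles were at 13.4%, 14.8%, 13.1%, 10.6%, 13.1%, 8.55%, 3.24%, 0.820%, 7.74%, 11.7% and 12.9%. The lowest stretch was thus at the gene, with both arms near the 15% limit. The tile of 14.8% rests on 115 read counts, and its interval of 8.85% to 22.6% spans the limit.

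**Figure D2:**
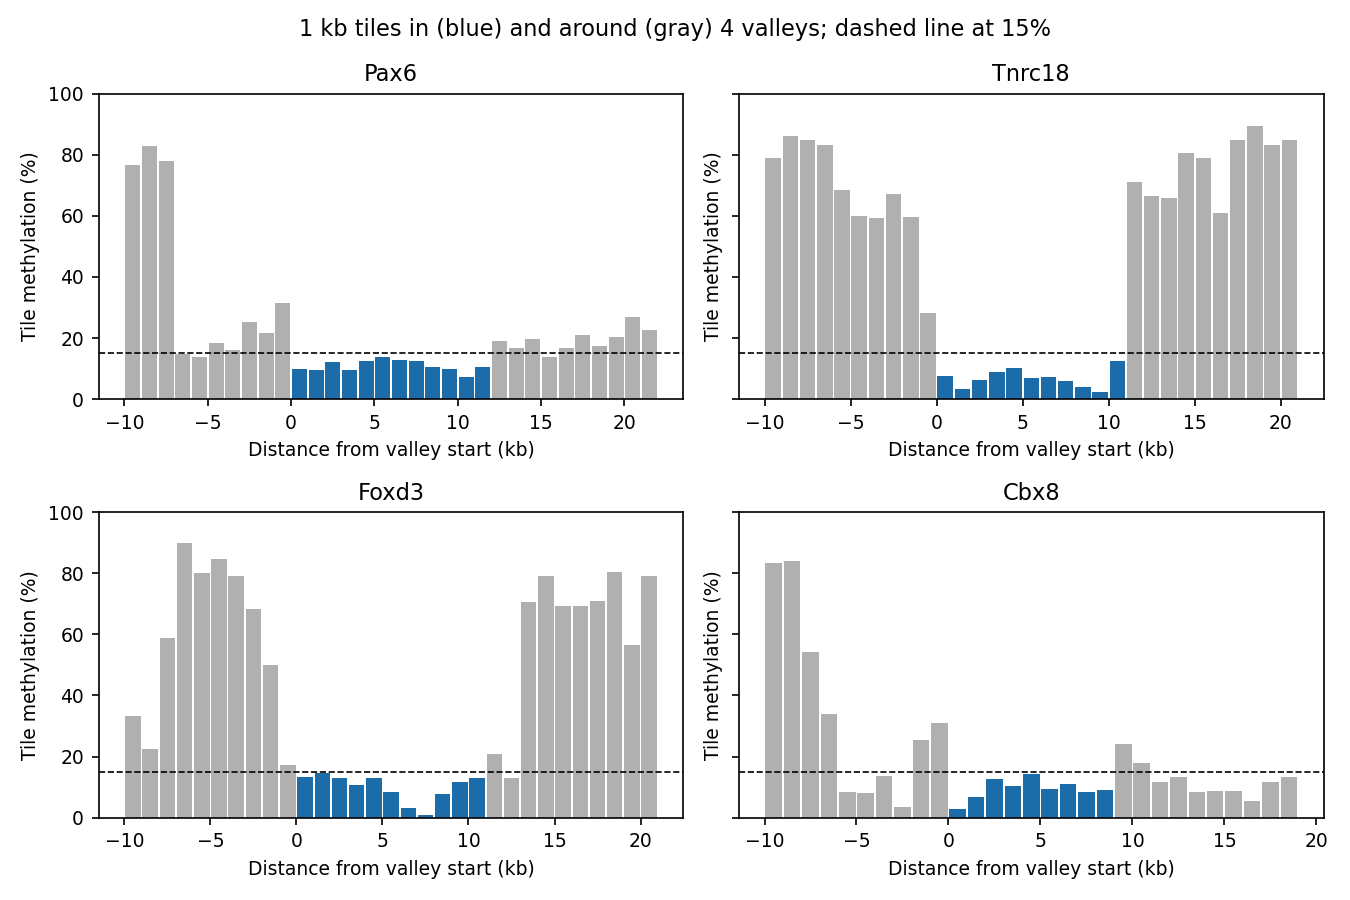
Methylation in percent (y) of each 1 kb tile against distance in kb from the left edge of the valley (x) for Pax6, Tnrc18, Foxd3 and Cbx8, with valley tiles in blue, tiles outside in gray and the 15% limit dashed. Around Pax6 and Cbx8 many gray tiles are also near or under 15%, while at Tnrc18 the tile right of the valley is at 70.9%.

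Next in length came 4 valleys of 9 kb. Hic1, a zinc finger repressor, shares its valley at chr11:75165001-75174000 with Mir212 and Mir132, and the level was 8.95% (8.33% to 9.61%). The tile that holds both hairpins, the last on the right, was the lowest of this valley at 3.53%. Dmrta2, a regulator of forebrain growth, lay wholly inside chr4:109976001-109985000 at 8.96%, a valley that its antisense gene Dmrta2os also overlaps. Lbx1, a homeobox gene of migrating muscle precursors, lay wholly inside chr19:45229001-45238000 at 8.28%.

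Cbx8, which encodes a chromodomain subunit of Polycomb repressive complex 1, had a 9 kb valley at chr11:119040001-119049000 with a level of 9.22% (8.37% to 10.1%). Its start was 0.913 kb from the left edge, so that 8.09 kb of the valley lay upstream of the gene. The tiles were at 2.74%, 6.96%, 12.7%, 10.5%, 14.2%, 9.57%, 11.2%, 8.48% and 9.06%. The lowest of them was the one with the start. After a gap of 2 kb at 20% there followed an 8 kb valley with no gene, at 9.35% (8.46% to 10.3%).

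Further valleys among the 30 longest are described by what their genes do. DNA-binding regulators were Zfp503 and Zfp516 (zinc finger proteins), Sall1 (kidney and limb development), Foxf1 (lateral mesoderm), Gata6 (primitive endoderm and heart), Uncx (somites), Lhx4 and Lhx5 (LIM homeobox), Egr3, Sp9, Nr4a3 (an orphan nuclear receptor) and Tfap2a (neural crest). Their valleys were 7 or 8 kb long, with levels from 5.33% at Sp9 to 9.34% at Lhx5. Fendrr, a long noncoding RNA next to Foxf1, and Gata6os, antisense to Gata6, overlap the same valleys as their neighbors.

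Corepressors and chromatin genes made another group. Skor1 and Tle3, both corepressors, had valleys of 7 kb at 7.07% and 4.87%. Bahcc1, which encodes a protein with a bromo-adjacent homology domain, had 8 kb at 4.95%, and a valley of 8 kb at 6.36% touched both Rhof, a small GTPase gene, and Setd1b, which encodes a histone H3 lysine 4 methyltransferase. Signalling and metabolic genes were Cyp26b1, whose enzyme breaks down retinoic acid (8 kb, 7.48%), Ptch1, the receptor of hedgehog ligands (7 kb, 4.13%), Fgf9, a fibroblast growth factor (7 kb, 5.21%), Hs3st3b1, a heparan sulfate sulfotransferase (7 kb, 6.25%), and Pcdh8, a protocadherin of cell adhesion (7 kb, 11.5%). Pcdh8 thus had the highest level of the 30 and Ptch1 the lowest.

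By level, the lowest valley was at LOC108167694 on chromosome 9, with 2.76% (2.37% to 3.20%), but at 20.4 reads per CpG it is 1 of the 3 valleys of unusual depth. Also among the 3 lowest was Nr2f2, an orphan nuclear receptor, at chr7:70359001-70366000 with 3.54% (2.95% to 4.21%). At the other end stood Rn18s-rs5, a copy of ribosomal RNA sequence, with 13.3% (13.1% to 13.5%), then Hoxd12 with 12.8% (11.2% to 14.6%) and Ebf2, a helix-loop-helix factor of neurons and fat cells, with 12.6% (11.5% to 13.8%). The intervals of Hoxd12 and Ebf2 overlap. Ribosomal RNA genes are a repeat of many copies, and whether reads of other copies were placed at Rn18s-rs5 was not tested.

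The valleys were CpG-rich but not uniformly so. Their median was 51.3 CpGs per kb over valleys, with quartiles of 43.4 and 59.1. Rn18s-rs5 had the most, 104 per kb, followed by Ubtf, a ribosomal RNA transcription factor gene, with 84.4 and the valley of Brd2 and H2-DMa with 79.4. Tfap2d, an AP-2 family gene, had the fewest, 18.4 per kb, with a level of 9.96% (7.83% to 12.4%). A valley of tRNA genes on chromosome 13 followed with 18.8 and that of Upp1, a uridine phosphorylase gene, with 22.8.

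Single tiles of valleys held a median of 46 CpGs, against 50 in the tiles of runs of 1 to 4 and 9 in all measured tiles. Tiles under 20 CpGs made up 128 of the 1255 valley tiles, or 10.2%, and 8.81% of the tiles of shorter runs. In valleys these CpG-poor tiles had a level of 10.4%, while over all 1458356 measured tiles under 20 CpGs it was 75.9%. At least 1 such tile was found in 88 of the 214 valleys. The rule admits only low tiles, so the level inside is fixed by it and the number of valleys with such tiles is not. Of the 21402 measured tiles with 40 or more CpGs, 76.0% were low and 3.53% lay in a valley.

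At like CpG number, tiles of valleys and of shorter runs had close levels. In tiles of 5 to 20 reads per CpG with 40 or more CpGs, the level was 6.29% in valleys (743 tiles, 6.23% to 6.36%) and 5.90% in runs of 1 to 4 tiles. In those with 20 to 39 CpGs it was 9.93% in valleys (358 tiles, 9.75% to 10.1%) and 9.79% in the shorter runs, and in those with 5 to 19 CpGs it was 10.4% in valleys (101 tiles, 9.85% to 11%) and 10.97% in the shorter runs. With tiles of any depth, and so with the Rn18s-rs5 valley, the level of the CpG-rich valley tiles was 7.27%, against 5.91%. Across the 214 valleys, CpGs per kb and level had a Spearman rho of -0.49 and a Pearson r of -0.40 (-0.50 and -0.49 over the 211 valleys of usual depth). Length and level had a rho of 0.13 and an r of 0.13. These are descriptions: all points come from the same libraries, share their depth and were chosen on level and length.

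Reads of the strand that did not make the choice gave an estimate with different reads. Chosen on plus strand reads alone, 200 valleys had a level of 7.14% (7.05% to 7.23%) in the minus strand reads, against 6.72% in the reads used for the choice. Chosen on minus strand reads, 208 valleys had 7.47% (7.38% to 7.56%) in the plus strand reads, against 6.50%. On the other strand 198 of 200 and 203 of 208 valleys were at 15% or less, and 1 in each set was over 20%, at 20.1%. The unused reads thus gave slightly higher levels than those used. Reads of opposite strands come from the same DNA samples, so they are not biological replicates.

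The edge of a valley was nearly always set by level under the rule as given, at 91.8% of edges. With at least 10 CpGs per tile that share was 68.1%, with at least 50 read counts 75.9% and with at least 3 CpGs 97.2%. Under the rule as given, 393 of the 428 tiles next to a valley were over 15% and 35 had fewer than 5 CpGs. Among the measured ones the median was 29.0%, with quartiles of 19.4% and 47.9%. As many as 108 were at 15% to 20%, just past the limit, and 64 were over 60%. Inside the edge, the outermost valley tile had a median of 9.52% and the second one 6.97%, with 37 and 51 CpGs. The first tile outside had a median of 14 CpGs.

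Away from the valley, the median tile climbed over several kilobases. At 2 tiles from valleys the median tile was at 47.2%, against 74.4% for runs of 1 to 4 tiles, and at 5 tiles it was at 64.0%, against 76.5%. At 10 tiles the medians were 73.7% and 77.8%, and at 20 tiles 75.3% and 78.3%. Over all measured tiles the median was 76.9%. Levels from summed read counts, in which CpG-rich tiles weigh more, were lower and farther apart: 33.1% around valleys and 58.9% around shorter runs at 2 tiles, 45.0% and 59.4% at 10 tiles, and 51.9% and 61.5% at 20 tiles. By either measure the surroundings of valleys were below those of shorter runs at these distances. The gap in summed levels was uneven, with 58.9% and 60.2% at 18 tiles and 51.9% and 60.7% at 40 tiles. At 50 tiles the order was reversed in summed levels, with 67.4% around valleys and 60.9% around shorter runs. The first tile outside is fixed by the rule, the others are not.

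**Figure D3:**
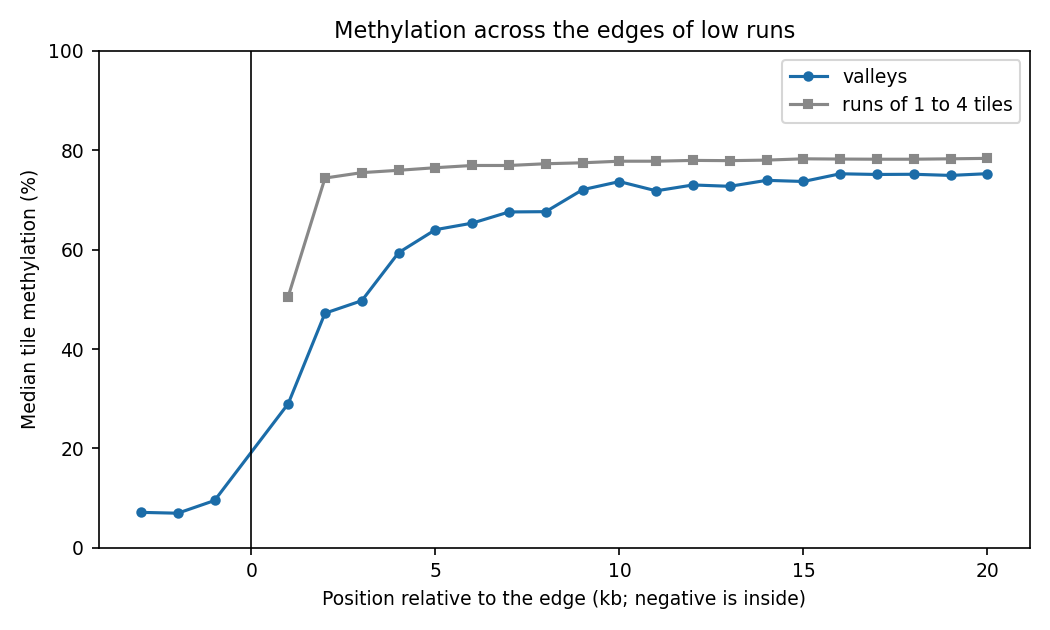
Median methylation in percent (y) of 1 kb tiles by position in kb from the edge of a low run (x, negative inside), for valleys in blue and runs of 1 to 4 tiles in gray. Valleys climb from 29.0% in the first tile to 73.7% at 10 kb, and shorter runs are at 74.4% in the second tile.

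Around gene starts the valleys were wide, as the rule asks, and not deeper. The promoter table used here is incomplete and does not cover chromosome 18. Of the 205 valleys on other chromosomes, 125 held a protein-coding start listed in it, and 122 held listed starts of only 1 gene, so 125 is a lower bound. In the 500 bp after the start, the median was 5.21% over these 122 valleys and 3.91% over 3242 low runs of 2 tiles. From 2000 to 2500 bp downstream it was 10.4% in valleys and 76.7% in runs of 2 tiles. From 5000 to 5500 bp downstream the medians were 44.4% and 81.3%. On the upstream side, the bin from 3000 to 2500 bp before the start had a median of 17.5% in valleys and 72.7% in runs of 2 tiles. Bins 2000 bp or more from the start lie outside a run of 2 tiles by its length. The contrast in them thus partly follows from the grouping by length.

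**Figure D4:**
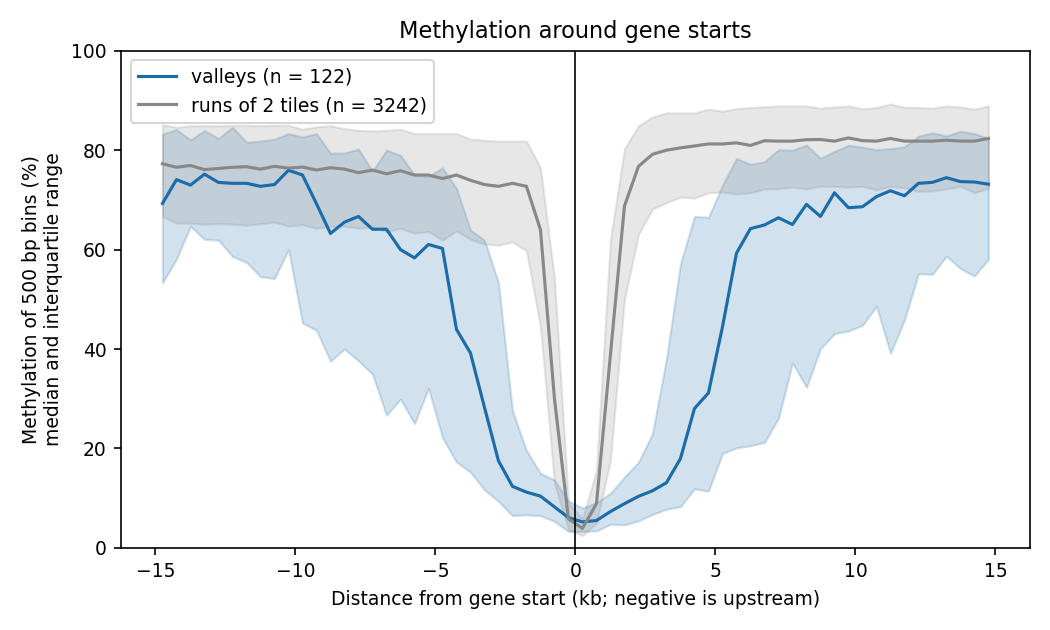
Methylation in percent (y) of 500 bp bins against distance in kb from a protein-coding gene start (x, negative upstream), as median line and interquartile band, for 122 valleys in blue and 3242 low runs of 2 tiles in gray. Just after the start the medians are 5.21% and 3.91%, and the valley line is at 13.1% from 3000 to 3500 bp downstream. By its length a run of 2 tiles cannot reach 2000 bp past the start.

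The start did not sit at a fixed place in the valley. A median of 2.36 kb of the valley lay upstream of the start and 3.27 kb downstream. The downstream side was longer in 74 of the 122 valleys, or 60.7%, against 72.7% of runs of 2 tiles, 74.2% of runs of 3 and 70.8% of runs of 4. At Foxd3 the sides were nearly equal, with 5.30 kb upstream and 5.70 kb downstream, at Pax6 they were 2.90 and 9.10 kb, and at Cbx8 8.09 and 0.913 kb.

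Protein-coding genes overlapped 200 of the 214 valleys, 185 of them a single gene and 15 a pair. In all, 211 of 20665 autosomal protein-coding genes overlapped a valley, which is 1.02%, and 12723 had a low run of 1 to 4 tiles as their longest. A gene wholly inside was found in 32 valleys. Genes of 8 lists of developmental transcription factors were in 84 of the valleys, or 39.3%. For runs of 4 tiles the share was 16.6%, for runs of 3 it was 9.24%, for runs of 2 2.70% and for single tiles 1.88%. A longer run can overlap more genes. Among valleys the share was 31.8% of those of 5 kb, 50% of 6 kb, 41.4% of 7 kb and 47.4% of 8 kb or more. The 84 valleys with a listed factor had a median level of 7.43% and 49.2 CpGs per kb, against 6.46% and 52.4 in the other 130.

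**Figure D5:**
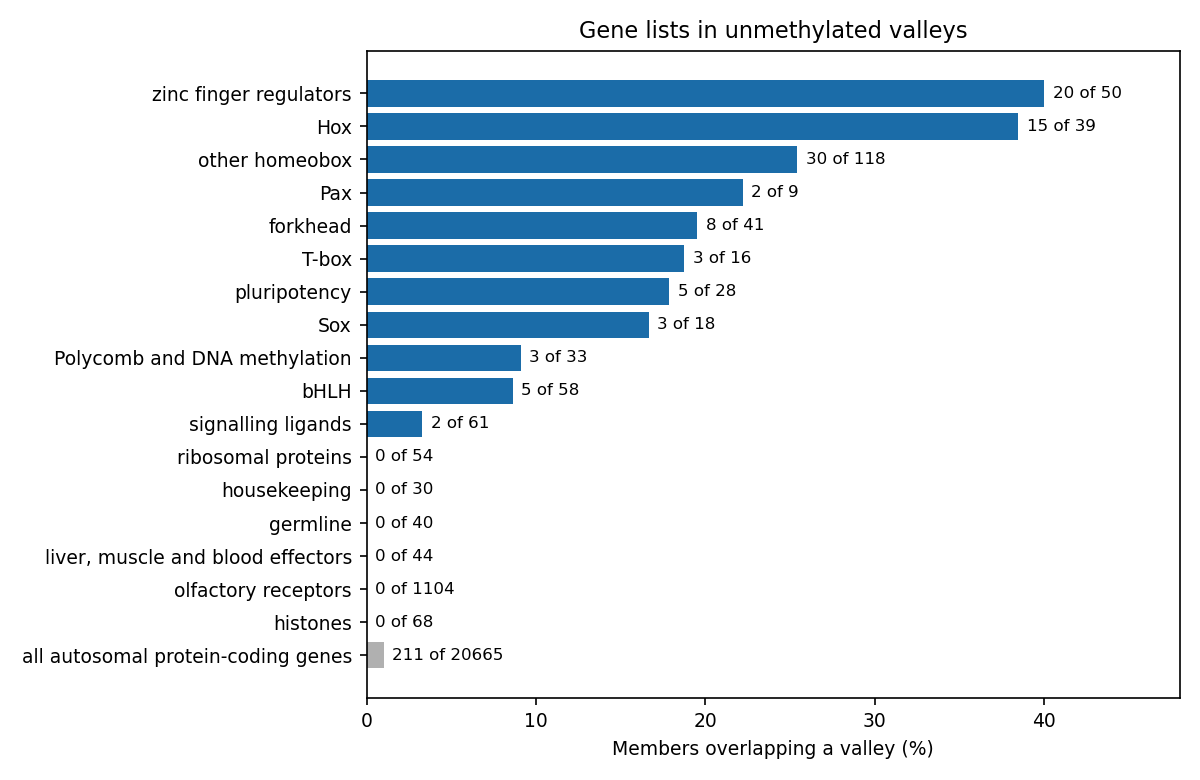
Share in percent (x) of the autosomal members of each gene list that overlap a valley (blue bars), with counts, and the share of all protein-coding genes (gray). The 8 transcription factor lists range from 8.62% to 40%, and 6 lists have no member in a valley.

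Of the 349 listed transcription factors, 86 overlapped a valley, or 24.6%, against 1.02% of all protein-coding genes and 0.636% of the 18863 genes on no list. Their median longest low run was 3 kb, against 1 kb for all genes. A run of 3 kb or more was found for 60.2% of them, against 8.13% of all. Most of these regulators thus had a low run shorter than a valley: 238 had 1 to 4 tiles and 25 had no low tile. The lists are not complete, since the regulators Hic1, Dmrta2 and Zfp503, named above, are on none of them. Genes on no list and valleys without a listed factor thus also include regulators. The lists were written with earlier results of these data known, so the shares are a description.

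Hox genes, which set position along the body axis, had 15 of 39 members in a valley, 38.5%, and a median longest run of 4 kb. The count was 9 with tiles shifted by 500 bp, 7 with at least 10 CpGs per tile, 1 with a limit of 10%, 26 with 20% and 25 with 1 tile of any kind allowed inside a run. Their longest valleys were at Hoxb3, 7 kb at 10.3% (9.13% to 11.7%), and Hoxa3, 7 kb at 6.82% (5.82% to 7.93%). The CpG-densest tile near a Hox gene without a valley was lowest at Hoxa13, at 1.77%, and highest at Hoxa10, at 21.1%. All 4 clusters were mosaics of mostly low and middling tiles, and their highest tiles ranged from 65.3% at Hoxc to 83.3% at Hoxd. In the Hoxa cluster 52 of 99 measured tiles were low, in Hoxb, taken without Hoxb13, 45 of 95, in Hoxc 52 of 99 and in Hoxd 48 of 92. Each cluster held 3 valleys, which covered 17 kb of 106 kb at Hoxa, 19 kb of 98 kb at Hoxb, 16 kb of 116 kb at Hoxc and 15 kb of 98 kb at Hoxd. Cluster levels ranged from 11.5% at Hoxa (11.1% to 11.8%) to 12.9% at Hoxb (12.5% to 13.3%), and median tiles from 14.7% to 15.3%. The 15% limit thus passes through the middle of their tiles, and with a limit of 20% the genes from Hoxd8 to Hoxd11 shared a valley of 21 kb.

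Other homeobox genes had 30 of 118 members in a valley, 25.4%. Lbx1 and Uncx were in the longest, and the other extremes were Nkx6-1, without a valley and with 0.959% at its CpG-densest tile, and Zfhx3, with 78.4%. Of the Pax genes 2 of 9 had a valley, Pax6 and Pax2, and Pax2 regulates kidney and eye development (6 kb, 6.60%, 5.81% to 7.45%). Pax3 and Pax1, regulators of muscle precursors and vertebrae, had none, with 9.27% and 16.9% at their densest tiles. Forkhead genes had 8 of 41 members in a valley, 19.5%, led by Foxd3 and Foxf1. Foxi3 and Foxi1, both without one, were at 2.02% and 80.9%.

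Zinc finger regulators, which include Gata, Sall, Zic and Nr2f genes, had the largest share of all lists, 20 of 50 or 40%. Sall1 and Gata6 were in the longest of their valleys. Insm1 and Glis1 had none, with 2.38% and 81.5% at their densest tiles. Sox genes had 3 of 18 in a valley: Sox2, a core factor of pluripotent cells (7 kb, 5.22%, 4.45% to 6.09%), Sox9 and Sox1. The T-box genes had 3 of 16, which were Tbx3 (6 kb, 9.53%), Tbx2 and Eomes. The bHLH list, which also holds the helix-loop-helix Ebf genes that are not bHLH, had the smallest share of the 8 transcription factor lists. It had 5 of 58 or 8.62%, led by Ebf2 and Ebf3. Low CpG-dense tiles also occurred without a valley, as at Sox21 (1.63%), Tbx10 (4.27%) and Twist1 (1.74%), while Sox15 (29.9%), Tbx5 (86.7%) and Myf5 (76.2%) were the highest of their lists. A high value at the CpG-densest tile near a gene's ends need not be at its start.

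Genes of the pluripotent state had 5 of 28 members in a valley, 17.9%: Sox2 in a valley of 7 kb, Zic2, Tbx3 and Sall4 in valleys of 6 kb and Otx2 in one of 5 kb. Of those without a valley, Klf4 was at 2.60% and Dppa2, a gene of early embryos and germ cells, at 79.6% in the densest tile. The list shares Sox2, Tbx3, Zic2, Sall4 and Otx2 with the factor lists, so all 5 count there too. Polycomb and DNA methylation genes had 3 of 33, among them Cbx8 and Jarid2, a partner of Polycomb repressive complex 2 (5 kb, 3.76%, 3.12% to 4.48%). Rnf2 was at 1.66% and Dnmt1, the maintenance methyltransferase, at 92.1% in the densest tile, both without a valley. Of the 33 genes only 1 had no low tile, and the densest tile need not be at a gene's start. The list of signalling ligands, which also holds the secreted antagonist Cer1, had 2 of 61, Fgf9 and Wnt6, or 3.28%. Inhbb was at 1.24% and Cer1 at 69.1% without a valley.

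No member of 6 lists overlapped a valley under the rule as given. Histone genes left 0 on minus strand reads (3 genes), with a limit of 20% (3) and with 1 tile of any kind allowed inside a run (5), housekeeping genes with a limit of 20% (1) and ribosomal protein genes with the allowed tile (1). All 54 ribosomal protein genes and all 30 housekeeping genes had a low run, yet none longer than 3 kb and 4 kb. Of the ribosomal protein genes Rpl32 was lowest at 1.83% in the densest tile, and Gapdh lowest at 1.98% and Ywhaz highest at 86.2% of the housekeeping genes. Histone genes had a low run in 61 of 68, up to 4 kb. Germline genes had no low tile in 36 of 40, genes of liver, muscle and blood in 38 of 44 and olfactory receptors in 1103 of 1104. The germline gene Piwil2 was at 94.6% and Csf1r, the receptor of macrophage growth factor, at 90.3%. Lists with no valley thus include lists with short low runs and lists of mostly methylated genes.

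Valleys without a protein-coding gene numbered 14, of which 3 had no gene of any kind. In 6 of the 214 no protein-coding gene lay within 10 kb. Among them is the valley next to that of Cbx8, 10088 bp from the nearest. The others were those of Mir9-3 and its host Mir9-3hg (10.2%, 9.15% to 11.3%, at 36090 bp), of the noncoding genes Gm9734 and 2810410L24Rik (7.69%), Gm41011 (7.58%) and C130071C03Rik (6.11%), and of Rn18s-rs5.

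Transfer RNA genes, which RNA polymerase III transcribes, were inside 5 valleys. They numbered 22 of 391 on the autosomes, or 5.63%, against 1.02% of protein-coding genes, and those of a valley share a cluster. These shares are not alike in measure, since a tRNA gene is short and a coding gene counted with any overlap. Wholly inside a valley were 32 of the 20665 protein-coding genes. The largest group was 7 tRNA genes in chr13:21167001-21174000 at 8.68% (7.28% to 10.3%), with no protein-coding gene. A second on that chromosome, chr13:21933001-21938000, held 3 at 6.82% (5.16% to 8.80%). The 3 on chromosome 11 held 4 tRNA genes each, beside Hes7 and Aloxe3 at 4.99%, beside Borcs6 at 5.45%, and with no protein-coding gene at 8.02%. The tRNA valleys had between 18.8 and 51.8 CpGs per kb.

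Some valleys had a near neighbor: among the 214 valleys, 22 pairs of neighbors were within 50 kb of each other. Several of these pairs lay in the same Hox cluster or at the same gene, as at Skor1, Tbx2 and Gata4. No expected number of pairs was computed. No pair was separated by 1 tile, and 3 pairs by 2 tiles, all of them with a gap level from 17.6% to 20%. These were Cbx8 and the valley without a gene, Hoxd9 with Hoxd10 and Hoxd8, and the noncoding Gm27199 and Lhx5. Some gaps were as low as valleys in sum: the 15 kb between Hoxc9 and the valley of Hoxc6 and Hoxc8 had a level of 9.86%, with its highest tile at 47.1%. Foxf1 and Foxc2, neighbors 27 kb apart, had a methylated gap of 52.7%. Between Dlx1 and Dlx2, homeobox genes of forebrain and jaw, 10 kb at 16.0% separated the valleys.

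Chromosome 11 had the most valleys, 32, or 36.1 per 100000 measured tiles and 19.9 per 1000 protein-coding genes. Chromosome 13 had 16, or 20.3 and 19.3 by the same measures. Chromosome 16 had the fewest, 2, or 3.28 and 2.95. On the X, to which the rule was applied for comparison, 6 of 342 low runs were 5 tiles or longer, or 8.95 per 100000 measured tiles. Mean depth was 6.54 reads per CpG on the autosomes and 4.32 on the X. Bcor, a corepressor that joins a variant Polycomb repressive complex, overlapped 4 of these 6, at levels from 7.18% to 10.1%, and the others were at Bcorl1, its homolog (7.86%), and Stag2, a cohesin subunit gene (5.61%).

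How close the limit is can be seen in the runs at it. Just inside were 5 kb valleys at Skor1 and the noncoding Gm20467, each with a highest tile of 15% after rounding, at Tnpo2 with 14.97% and at 8430419K02Rik with 14.9%. Just outside were runs of 4 tiles at Foxc1 and Pou3f1, each with a next tile at 15.1%, at Slc17a6 with 15.1% and at Kdm6b with 15.2%. In all, 86 runs of 4 tiles had a next tile at 15% to 20%. Counting error also reaches the limit, since in 162 of the 214 valleys the interval of the highest tile spans 15%.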

How the data were processed

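Whole-genome bisulfite libraries of epiblast were represented by 1 deposited table of the group. It holds counts of reads deposited by the authors, methylated and unmethylated, for each strand of each CpG, with no normalization and no column per sample. Per the submitters' processing notes, the build was mm10 and Bismark 0.12.5, Bowtie2 2.1.0 and cutadapt 1.3 were used. Whether duplicate reads were removed, and how samples were combined, is not given in the sources used here. Duplicates and reads over several CpGs make the intervals too narrow.

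Both strands of a CpG were summed, each CpG was put in the 1 kb tile of its plus strand cytosine, and a level is methylated over all read counts. The table held 137691322 read counts, with a median of 6 per autosomal CpG and of 3134 per valley. Gene spans, starts and sequences came from RefSeq tables of GRCm38.p6, which has the same chromosome sequences as mm10. A gene was in a valley when its span overlapped it. The promoter table covers 16457 autosomal protein-coding genes and none on chromosome 18. Python 3.11.15, numpy 2.4.6, pandas 2.3.3 and scipy 1.17.1 were used, and the run finding was tested on simulated data.

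Members, gene lists and comparisons were chosen with earlier results of these data known. Named were the genes of the 30 longest valleys, up to 4 members per list (in the longest valleys, and lowest and highest in the CpG-densest tile within 2000 bp of the gene's ends, without a valley), the 3 valleys at each end of level and CpG number, valleys far from coding genes, and up to 4 runs on each side of the length limit. Genes named with microRNAs, tRNAs, neighboring valleys and the X, further list members, and Gm36079 were chosen after their values were seen. A few genes that this rule names are not reported here. One list entry matched no gene and 1 lies on the X. Alternatives changed the limits, tile grid, gaps, strand, depth and gene overlap. No p-value was computed, since replicates cannot be separated.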

Additional observations from a re-analysis of the deposited data

How the results depend on the processing

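Counts of valleys followed the limits that define them, by construction. With a limit of 10% per tile there were 56 valleys of 305 kb in all, the longest 7 kb, with 61 genes, 19 of them on the transcription factor lists, a summed level of 5.33% and 0 valleys on the X. With 20% there were 407 valleys of 2624 kb, up to 21 kb, with 409 genes, 145 listed factors and 8.44%. Allowing 1 tile of any kind inside a run gave 393 valleys of 2595 kb, up to 25 kb, with 418 genes, 151 listed factors and 8.23%. Runs of at least 4 tiles numbered 515 and of at least 7 tiles 48. Counting genes wholly inside left 32 genes and 16 listed factors. The summed level was 7.80% with at least 10 CpGs per tile, 7.73% with at least 50 read counts and 7.58% with tiles shifted by 500 bp. With low tiles chosen by the mean of their CpG fractions, the level from summed read counts was 6.89%. It was 6.72% and 6.50% chosen on plus and minus strand reads, and 6.90% without the CpGs of greatest depth. Chosen after seeing the data were the level without valleys of unusual depth, 6.91%, and the median over valleys, 6.84%. On minus strand reads the X had 3 valleys. The other 90 main values under alternatives moved by less than 1.5 times or their interval or, for CpGs per kb, by less than 1 standard deviation over valleys. With any overlap of gene and valley, listed factors were 31.2% to 45.2% of genes in valleys over the settings of tiles and runs. No paired analysis was possible because the table has no column per sample, so no replicate could be left out. In 162 valleys the interval of the highest tile spans 15%, and 21 valleys have a tile under 50 read counts, so single edges are uncertain at this depth.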
